A study of Mus musculus with 4 samples.

Results

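The 10 genes described here encode the NF-kB subunits and the proteins that hold them in check: Nfkb1, Nfkb2, Rela, Relb, Rel, Nfkbia, Nfkbib, Nfkbie, Nfkbiz and Tnfaip3. They were chosen by name from the deposited count table. Each name matched 1 row, so 10 of 22554 genes were taken, and all 10 were among the 17650 genes left after the filter on low counts. RNA was sequenced from group 2 innate lymphoid cells (ILC2s) sorted from the lungs of 6-week-old wild-type BALB/c mice (BALB/cByJ in the methods of the study), as 2 libraries from cells given vehicle and 2 from cells given compound 5D, an inhibitor of the Orai calcium channels. In both groups the cells were cultured overnight with IL-2, IL-7 and IL-33, so the vehicle libraries are activated cells and not a resting baseline, and while a 5D dose was chosen by titration in other ILC2 cultures of the study, the sources used here do not state which dose the sequenced cultures received. No label says that the libraries of a group came from separate mice or cultures, and the p-values therefore measure the spread between these libraries, which may be technical.

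NF-kB is a family of dimeric transcription factors built from 5 subunits. In a resting cell the dimers are held in the cytoplasm by IkB proteins, and a signal such as IL-33 acting through its receptor and MyD88 activates the IkB kinases, which mark the IkB proteins for destruction and free the dimers to enter the nucleus. The dimers then drive cytokine genes and, through kappaB sites, the genes of their own inhibitors, so that IkB alpha and A20 rise after activation and close the loop. In lymphocytes NF-kB acts beside the calcium-dependent factor NFAT on many of the same cytokine genes, and calcium entry also feeds into NF-kB through protein kinase C.

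The upstream sequences of the members are shown because kappaB sites in such sequences are how the family can act on its own genes. RefSeq promoter windows on GRCm38.p6 were found for 7 members, in 10 windows that reflect alternative start sites. The 250 bases before each start were searched on both strands for the kappaB consensus, the 10-letter degenerate motif that begins with GGG and ends with CC. A match was found for 5 of the 7 members, Nfkb2, Rel, Nfkbia, Nfkbie and Tnfaip3, and none was found in this window for Rela and Nfkbib. Of all 32851 promoter windows searched in the same way, 3.90% held a match. In the sequences of Nfkbia (chr12:55492648-55492897, minus strand), Rel (chr11:23770970-23771219, minus strand) and Nfkbie (chr17:45555450-45555699, plus strand), written 5′ to 3′ on the strand of the gene, the capitals mark the matches.
Nfkbia: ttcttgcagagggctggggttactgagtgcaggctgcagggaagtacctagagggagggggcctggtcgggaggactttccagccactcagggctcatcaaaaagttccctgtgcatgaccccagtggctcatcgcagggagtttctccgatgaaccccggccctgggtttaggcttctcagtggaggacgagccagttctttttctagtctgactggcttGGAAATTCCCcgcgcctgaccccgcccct
Rel: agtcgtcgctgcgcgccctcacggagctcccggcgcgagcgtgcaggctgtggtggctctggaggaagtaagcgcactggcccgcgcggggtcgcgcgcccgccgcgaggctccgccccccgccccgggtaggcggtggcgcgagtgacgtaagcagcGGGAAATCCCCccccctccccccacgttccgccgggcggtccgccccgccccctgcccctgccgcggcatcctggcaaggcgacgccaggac
Nfkbie: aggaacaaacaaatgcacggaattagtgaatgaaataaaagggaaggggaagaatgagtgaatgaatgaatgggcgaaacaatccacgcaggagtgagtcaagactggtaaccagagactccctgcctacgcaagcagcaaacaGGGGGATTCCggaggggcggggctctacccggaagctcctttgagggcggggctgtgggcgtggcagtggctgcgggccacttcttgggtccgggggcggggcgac
The Nfkbia match began 29 bases before the start and lay on the opposite strand of the gene. In Rel a pair of overlapping matches began 92 and 91 bases before the start, and in Nfkbie the match began 106 bases before it. Tnfaip3 held GGAAATCCCC from 12 bases before its upstream start (chr10:19015413-19015422) and GGGACACCCC from 125 bases before it. Nfkb2 held matches at each of its 3 starts, among them GGGAATTCCC 39 bases and GGGGCTTTCC 11 bases before the first. A match is a run of letters and says nothing of whether a factor was bound.

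No member differed between 5D-treated and vehicle-treated ILC2s by more than the test across all genes required. In the quasi-likelihood test of edgeR, with p-values adjusted over all 17650 genes (Benjamini-Hochberg), 0 of the 10 members passed an adjusted p-value of 0.05, where 17 genes or 0.0963% of all genes did (0.0283% higher and 0.0680% lower with 5D), and the adjusted p-values of the members lay between 0.629 and 0.997. At an unadjusted p-value under 0.05, 1 member was higher with 5D, Relb, and 0 were lower. Over all genes 7.34% passed that mark, 3.50% higher and 3.84% lower, so 1 of 10 members is near that background. DESeq2's Wald test, which gave no adjusted p for Rel and Nfkbie, and limma-voom also called 0 members after adjustment, and at an unadjusted p-value limma-voom kept Relb while DESeq2 kept 0. The median log2 fold change of the members was -0.015, beside -0.0016 for all genes tested, with 5 members above 0 and 5 below. Both libraries of a group lay beyond both of the other for 5 members, 3 higher and 2 lower with 5D, and for 37.6% of all genes (18.7% higher and 18.8% lower).

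**Figure D1:**
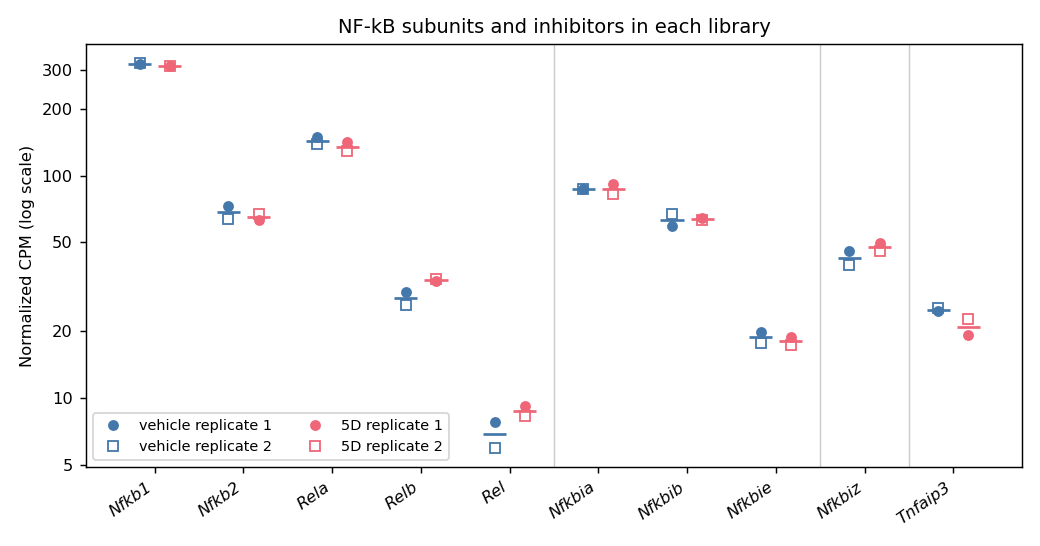
Normalized CPM (log scale) of each member in the 4 libraries, with filled circles for replicate 1, open squares for replicate 2 and short lines for group means (n = 2). Vertical lines part the subunits, the cytoplasmic inhibitors, Nfkbiz and Tnfaip3. The members spanned from 5.95 CPM for Rel to 320.4 CPM for Nfkb1, and for 5 of them the groups overlapped.

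Levels below are in normalized CPM (counts of a gene per 1000000 counts of its library) after upper quartile scaling, and each mean ± SD is over n = 2 libraries. Counts per library ran from 119 for Rel to 8891 for Nfkb1. The total counts were 20096555 to 28697265 per library, and the 5D libraries were both deeper than the vehicle libraries. The cells carried the ILC2 profile, with 12 of 12 listed ILC2 markers above 1 CPM in every library, among them Gata3 at 1091 to 1108 CPM. Their summed levels were 9975 and 10070 CPM with vehicle and 9561 and 9973 CPM with 5D. Between the groups, 4 of these 12 markers were under an unadjusted p-value of 0.05 by edgeR, a larger share than the 7.34% of all genes. They included Il1rl1, which is counted again below among the IL-33 receptor genes. After adjustment 0 of the 12 passed. Of 7 T cell markers Cd5 and Trac stayed at or below 0.3998 CPM, Cd3e at 2.76 to 4.13 CPM, and the list summed to 254 to 275 CPM, largely through Trbc1, Trbc2 and Cd3g. The summed markers of B cells were 13.6 to 19.4 CPM and those of macrophages or monocytes 2.97 to 6.45 CPM, and S100a9, Ms4a2, Scgb1a1, Krt8 and Col3a1 were at 0 in all libraries. Other markers of the same lists were present, with the epithelial marker Epcam at 25.5 to 27.7 CPM and the mast cell marker Cpa3 at 1.249 to 3.401 CPM. The endothelial marker Pecam1 was at 23.7 and 21.3 CPM with vehicle and 19.9 and 15.7 CPM with 5D (log2 fold change -0.34, SE 0.15, edgeR adjusted p = 0.642), and was the 1 marker of its list under an unadjusted p-value of 0.05. The part of such cells in the values below was not tested. In RNA from a bulk of cells, a lower share of cells with a transcript and less transcript per cell cannot be told apart.

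The first pair of subunits are made as long precursors. Nfkb1 (ENSMUSG00000028163.17, chromosome 3 of mm10 from 135584655 to 135691547) encodes p105, which is processed to the subunit p50. It was measured at 317.1 and 320.4 CPM with vehicle and at 311.6 and 310.9 CPM with 5D. The 5D values were just under the vehicle values, without overlap. Between the groups the log2 fold change was -0.03 (standard error, SE, 0.05, edgeR adjusted p = 0.928), and the 95% interval of the fold ran from 0.911 to 1.05. Nfkb1 was the member with the narrowest interval, and leaving out any library kept its log2 fold change between -0.045 and -0.029. Nfkb2 (chromosome 19 from 46304320 to 46312385) encodes p100, the precursor of p52 that also acts as an inhibitor of RelB. It had 73.2 and 63.9 CPM with vehicle and 63.3 and 67.2 CPM with 5D, and the groups overlapped. Its log2 fold change of -0.07 (SE 0.09, edgeR adjusted p = 0.920) turned to 0.03 without vehicle replicate 1. The fold interval was 0.834 to 1.09. Exons of Psd and AC114539.1 on the opposite strand overlap it, by up to 18.1% of its exon length. That value adds the genes up, so bases shared by both count for each. Psd was at 1.03 to 1.45 CPM.

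The other subunits carry a transactivation domain. Rela (chromosome 19 from 5637483 to 5648130) encodes p65, the main partner of p50. It was at 148.5 and 138.6 CPM with vehicle and at 141.0 and 129.1 CPM with 5D. The ranges overlapped, and the log2 fold change was -0.09 (SE 0.07, edgeR adjusted p = 0.843) with a fold interval of 0.850 to 1.04. Relb (chromosome 7 from 19606217 to 19629438) encodes RelB, which pairs with p52 in the noncanonical branch of the pathway and is itself a target of NF-kB. It had 695 and 525 counts with vehicle and 910 and 976 with 5D, which are 29.9 and 26.2 CPM against 33.5 and 34.1 CPM. Both 5D libraries lay above both vehicle libraries. In the fit this was a log2 fold change of 0.27 (SE 0.11, edgeR adjusted p = 0.629), a fold of 1.20 with an interval of 1.02 to 1.42, and Relb was the member whose interval left out 1. Without vehicle replicate 2 the log2 fold change was 0.17, with an unadjusted p of 0.218 from edgeR's test, and without vehicle replicate 1 it was 0.36, with an unadjusted p of 0.0130 from the same test.

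Rel (chromosome 11 from 23736847 to 23770970) encodes c-Rel, a subunit known for its role in activated lymphocytes. It was the least abundant member, with 180 and 119 counts under vehicle and 249 and 236 counts under 5D. In normalized CPM its vehicle levels of 7.75 and 5.95 stood against 9.18 and 8.25 under 5D, again with both 5D libraries above both vehicle libraries. The log2 fold change of 0.34 was the largest of the members, and its standard error of 0.20 was the largest as well (adjusted p = 0.772 from edgeR). The fold interval ran from 0.933 to 1.72. The vehicle libraries differed from each other by 30.3%, and leaving out either moved the log2 fold change to 0.55 without vehicle replicate 1 and to 0.17 without vehicle replicate 2. The sum of the 5 subunits was 565.8 ± 15.1 CPM with vehicle and 554.1 ± 6.39 CPM with 5D, and the libraries overlapped.

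**Figure D2:**
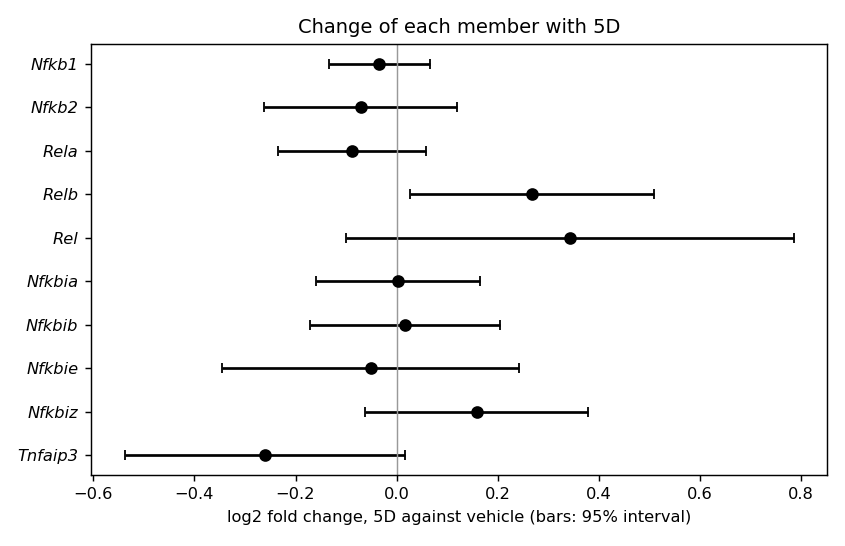
The log2 fold change of each member, 5D against vehicle, from edgeR over 4 libraries, with bars for the 95% interval. The intervals of 9 members include 0, and that of Relb runs from 0.03 to 0.51.

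The 3 cytoplasmic inhibitors overlapped between the groups, each with a log2 fold change nearer 0 than its standard error. Nfkbia (chromosome 12 from 55489410 to 55492647) encodes IkB alpha, the fast feedback inhibitor whose promoter match is shown above. It was at 87.4 and 86.8 CPM with vehicle and at 91.6 and 82.9 CPM with 5D, so the 5D libraries lay on either side of the vehicle libraries. Its log2 fold change was 0.0031 (SE 0.07, edgeR adjusted p = 0.997), and the fold interval ran from 0.896 to 1.12. The sign of a value this small turned with limma-voom and with either vehicle replicate 2 or 5D replicate 1 left out. Nfkbib (chromosome 7 from 28758251 to 28767512) encodes IkB beta, which resists rapid turnover. It had 59.0 and 66.9 CPM with vehicle and 64.1 and 63.2 CPM with 5D, a log2 fold change of 0.02 (SE 0.09, edgeR adjusted p = 0.990) that was -0.08 without vehicle replicate 1. The fold interval ran from 0.888 to 1.15. Sirt2 and Ccer2 on the opposite strand overlap up to 16.4% of the exon length of Nfkbib, added up over both genes. Sirt2 was itself at 72.6 to 80.9 CPM. The counting is not stated to use strand, so reads in those stretches cannot be assigned to Nfkbib or Sirt2. Nfkbie (chromosome 17 from 45555703 to 45563169) encodes IkB epsilon, a slower feedback inhibitor. Its levels of 19.8 and 17.6 CPM with vehicle and 18.8 and 17.3 CPM with 5D overlapped, with a log2 fold change of -0.05 (SE 0.13, edgeR adjusted p = 0.975) and a fold interval of 0.787 to 1.18. The sum of the 3 inhibitors was 168.7 ± 3.65 CPM with vehicle and 169.0 ± 7.84 CPM with 5D.

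Nfkbiz (chromosome 16 from 55811375 to 55838899) encodes IkB zeta, a nuclear IkB protein that is induced by IL-1 family cytokines and acts with p50 on a subset of NF-kB targets. It was at 45.5 and 39.7 CPM with vehicle and at 49.5 and 45.7 CPM with 5D. The lowest 5D library lay just above the highest vehicle library. It had a log2 fold change of 0.16 (SE 0.10, edgeR adjusted p = 0.799) with a fold interval of 0.958 to 1.30. The log2 fold change was 0.26 without vehicle replicate 1 and 0.06 without vehicle replicate 2. Tnfaip3 (chromosome 10 from 19000910 to 19015657) encodes A20, the ubiquitin-editing enzyme that ends signaling upstream of the IkB kinases. It was the member with the lowest fold, at 24.6 and 25.3 CPM with vehicle and 19.05 and 22.6 CPM with 5D, and the groups did not overlap. This is a log2 fold change of -0.26 (SE 0.13, edgeR adjusted p = 0.712), with a fold interval of 0.689 to 1.01. Its level in 5D replicate 1 was lower than in 5D replicate 2 (19.05 against 22.6 CPM), more than counting error gives (exact binomial p = 0.0044). The log2 fold change was -0.39 without 5D replicate 2 and -0.15 without 5D replicate 1.

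**Figure D3:**
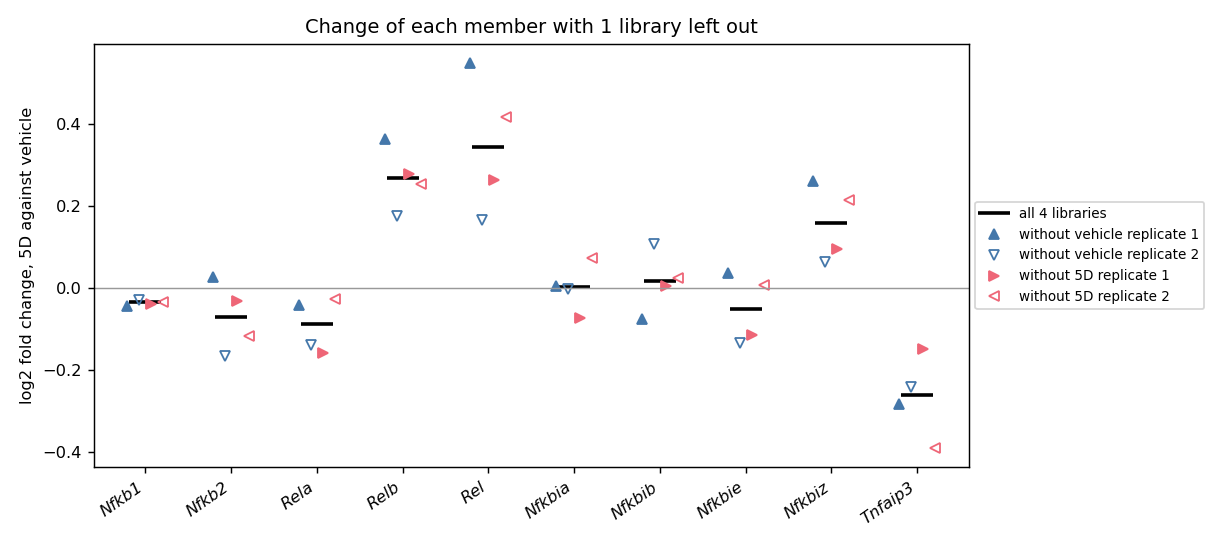
The log2 fold change of each member, 5D against vehicle, with all 4 libraries (black lines) and with 1 library left out (triangles). Relb, Rel and Nfkbiz stayed above 0 and Nfkb1, Rela and Tnfaip3 below 0 in each case, whereas Nfkb2, Nfkbia, Nfkbib and Nfkbie crossed it. The values of Relb, Rel and Nfkbiz were highest without vehicle replicate 1 and lowest without vehicle replicate 2.

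The libraries of a group also differed from each other. Over the 10 members and 2 groups, 10 of 20 pairs of libraries differed by more than counting error (exact binomial test, unadjusted p under 0.05), by up to 30.3%. Over the whole table, by a different measure, the chi-square per degree of freedom was 6.10 between the vehicle libraries and 6.66 between the 5D libraries. The share of all genes beyond counting error was not computed, so whether the members differ from other genes in this was not tested. Of the 10 members 7 were higher in vehicle replicate 1 than in vehicle replicate 2, Relb, Rel and Nfkbiz among them. Likewise 7 were higher in 5D replicate 1 than in 5D replicate 2, with Rel and Nfkbiz but not Relb among them. The share of all genes higher in replicate 1 is not given here, so these counts are not a trait of the members. With vehicle replicate 1 left out, the log2 fold changes of Relb, Rel and Nfkbiz were 0.36, 0.55 and 0.26. With vehicle replicate 2 left out they were 0.17, 0.17 and 0.06. The log2 fold change of Tnfaip3 was -0.39 without 5D replicate 2 and -0.15 without 5D replicate 1. In each of these fits the lone library of a group is taken to vary like the others.

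**Figure D4:**
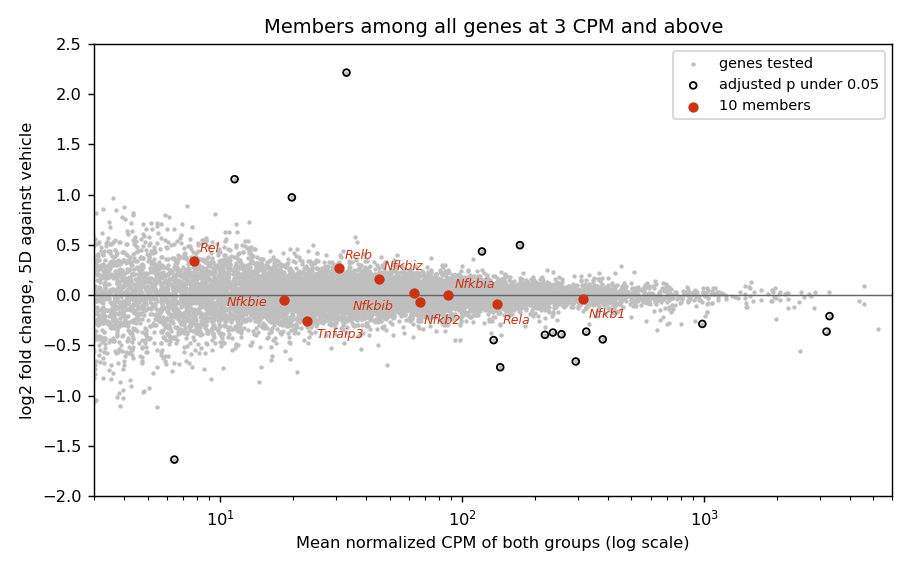
The log2 fold change, 5D against vehicle, of the 10580 tested genes in the drawn range of levels, against their mean normalized CPM over both groups (log scale). Filled red points are the 10 members and open circles the 17 genes with an adjusted p-value under 0.05. The members lie inside the cloud of genes at their level, from -0.26 for Tnfaip3 to 0.34 for Rel, apart from all 17 circles.

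To compare the members with each other, the normalized CPM was divided by the length of the exons of the gene, which gives CPM per kb. On this scale Nfkbia was the highest at 54.1 ± 0.246 with vehicle and 54.2 ± 3.83 with 5D, followed by Rela at 46.7 ± 2.28 and 44.0 ± 2.74 and by Nfkbib at 29.02 ± 2.59 and 29.4 ± 0.277. Nfkb1, Nfkb2, Nfkbiz, Relb, Nfkbie and Tnfaip3 came next in this order, and Rel was the lowest at 0.917 ± 0.171 with vehicle and 1.17 ± 0.0872 with 5D. The order was identical in all 4 libraries. Neighbours in it were separate over all libraries except Nfkbiz and Relb, at 7.91 to 9.87 and 6.75 to 8.79 CPM per kb, whose ranges overlapped. The place of Nfkb1 depended on the length used, since its exons over all annotated transcripts cover 12061 bases and its longest principal transcript has 4117. Per kb of the principal transcript, a scale chosen after the data were seen, Nfkb1 was the highest member at 77.4 ± 0.567 with vehicle and 75.6 ± 0.120 with 5D, Nfkbia and Rela overlapped behind it, and Rel remained the lowest.

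The share of inhibitors against subunits overlapped between the groups. On the scale per kb, the 3 cytoplasmic inhibitors made up 46.96% and 49.28% of the summed level of inhibitors and subunits under vehicle, against 49.27% and 48.32% under 5D. The means of 48.1% ± 1.64 and 48.8% ± 0.671 differed by less than the spread between the vehicle libraries (exact permutation test, two-sided, p = 1.00, where 2 libraries against 2 cannot give less than 0.333). The size of this share depended on the length used, at 22.4% to 23.8% over the libraries with no length scaling and 35.2% to 37.1% per kb of the principal transcript, and the groups overlapped on both scales. The subunit shares and ratios that follow were chosen after the values were seen. Relb made up 7.75% and 7.25% of the subunit level with vehicle and 9.05% and 9.51% with 5D, and Rel 1.04% and 0.855% with vehicle and 1.29% and 1.20% with 5D. The ratio of Relb to Rela was 0.159 and 0.150 with vehicle against 0.188 and 0.209 with 5D, and that of Rel to Rela 0.0215 and 0.0177 against 0.0268 and 0.0263. The ratio of Nfkbia to Rela was 1.12 and 1.20 against 1.24 and 1.23, and that of Tnfaip3 to Nfkbia 0.0627 and 0.0649 against 0.0463 and 0.0606. In these 4 ratios, which do not depend on how libraries are scaled, the groups were separate. The exact permutation test gave 0.333 for each, the smallest p it allows. By contrast, the ratio of Nfkb2 to Nfkb1 overlapped between the groups, with means of 0.566 ± 0.0581 and 0.552 ± 0.0241. Relb, Rel and Tnfaip3, which enter the separate ratios, were already separate by themselves, as were 37.6% of all genes. Chosen in this way, the ratios add no support for a shift.

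**Figure D5:**
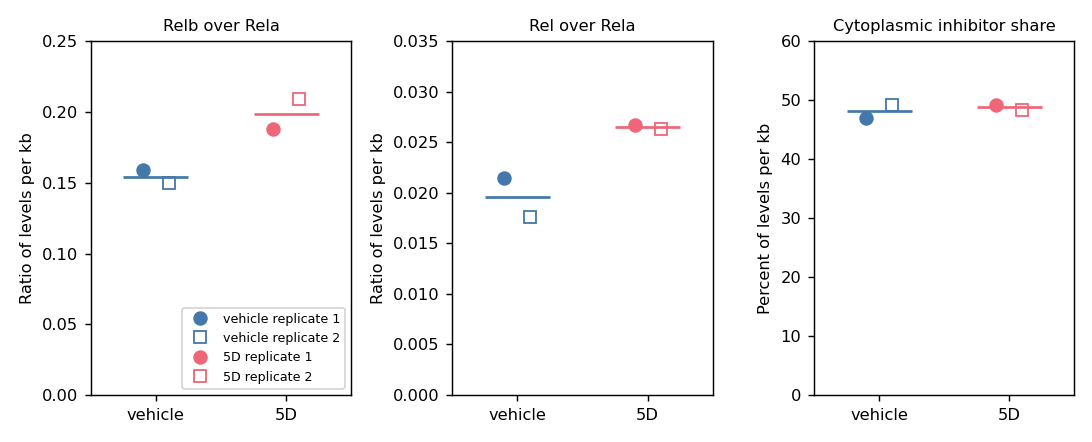
The ratio of Relb to Rela and of Rel to Rela, and the share of the 3 cytoplasmic inhibitors in the summed level of inhibitors and subunits, from CPM per kb in each library, with lines for the group means (n = 2). Both ratios, which were chosen after the values were seen, are higher in both 5D libraries than in both vehicle libraries. For the inhibitor share the 5D libraries, at 48.32% and 49.27%, lie between the vehicle libraries, at 46.96% and 49.28%.

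The pathway that leads to the members was described with lists of other genes. Among 9 genes from the IL-33 receptor to the adaptors, 0 passed after adjustment and 1 was higher at an unadjusted p-value under 0.05, 11.1% beside 7.34% of all genes. This was Il1rl1, which encodes the IL-33 receptor ST2. It had 666.6 and 627.1 CPM with vehicle and 675.6 and 732.0 CPM with 5D, a log2 fold change of 0.12 (SE 0.05, edgeR adjusted p = 0.621). Of 21 genes of IkB kinases and activating adaptors, 0 passed after adjustment, and 1 was higher and 2 lower at an unadjusted p-value under 0.05, 14.3% beside 7.34% of all genes. Tbk1, an IkB kinase-related kinase, had a log2 fold change of 0.15 (SE 0.07, edgeR adjusted p = 0.645). Tab2, which links the kinase TAK1 to ubiquitin chains, was at 57.0 and 50.7 CPM with vehicle and 40.2 and 44.7 CPM with 5D, a log2 fold change of -0.34 (SE 0.10, edgeR adjusted p = 0.487). Traf6, the ubiquitin ligase downstream of MyD88, was at 56.2 and 56.1 CPM with vehicle and 41.6 and 50.7 CPM with 5D, a log2 fold change of -0.28 (SE 0.10, edgeR adjusted p = 0.566). The groups did not overlap for 8 of the 21 genes, 4 higher and 4 lower with 5D and Tab2 and Traf6 among them, which is 38.1% beside 37.6% of all genes. Map3k14, the kinase NIK of the noncanonical branch that acts on p100, had 19.4 and 22.5 CPM with vehicle and 18.4 and 16.6 CPM with 5D, with a log2 fold change of -0.26 (SE 0.14, edgeR adjusted p = 0.746). The list had a median log2 fold change of 0.03.

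The remaining regulators gave similar values. Of 10 other IkB family and cofactor genes, 0 passed after adjustment by edgeR and 0 at an unadjusted p-value under 0.05, also with DESeq2 and limma-voom. Bcl3, a nuclear IkB protein that binds p50 and p52, had 161.0 and 163.6 CPM with vehicle and 157.6 and 149.5 CPM with 5D (log2 fold change -0.08, SE 0.06, edgeR adjusted p = 0.829). A list of 18 ubiquitin editing genes of this pathway also held genes of other roles, such as Zc3h12a, whose product Regnase-1 degrades inflammatory transcripts. After adjustment 0 of the 18 passed. At an unadjusted p-value under 0.05 by edgeR 1 was higher (5.56% beside 7.34% of all genes), which was Zc3h12a. It was at 11.8 and 11.5 CPM with vehicle and 14.7 and 15.1 CPM with 5D, a log2 fold change of 0.36 (SE 0.15, edgeR adjusted p = 0.624). Tnip1, the A20-binding partner, Cyld, a deubiquitinase, and Birc3, the ligase cIAP2, had log2 fold changes of -0.0066, 0.06 and -0.11, and their edgeR adjusted p-values were 0.997, 0.902 and 0.823.

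The known NF-kB target genes were read in the same way. Of 30 listed targets 29 were tested, and 0 passed an adjusted p-value of 0.05 by edgeR. At an unadjusted p-value under 0.05, 5 were lower and 2 higher with 5D, 24.1% of those tested beside 7.34% of all genes, and beside 8.69% of genes with a mean of at least 100 counts, among which 5 of 22 listed targets passed. The median log2 fold change of the list was -0.08. The list was drawn up with earlier results on some of its genes known, and many of the genes have other regulators. The lower genes were Il2ra, Ccr7, Tnfrsf9, Tnfrsf4 and Junb. Il2ra, the IL-2 receptor alpha chain, was at 2221 and 2068 CPM with vehicle and 1771 and 1874 CPM with 5D, a log2 fold change of -0.23 (SE 0.04). Its adjusted p was 0.0878 from edgeR and lay between 2.89e-06 and 0.181 over the alternatives, under 0.05 with DESeq2, with limma-voom, without a filter, with the replicate block, and without vehicle replicate 1, vehicle replicate 2 or 5D replicate 2. Ccr7, a chemokine receptor of lymph node homing, was at 23.1 and 29.3 CPM with vehicle and 16.8 and 13.9 CPM with 5D, a log2 fold change of -0.77 (SE 0.15, edgeR adjusted p = 0.165). Its adjusted p lay between 1.31e-05 (without vehicle replicate 1) and 0.544 (without 5D replicate 2) over the alternatives.

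The costimulatory receptor 4-1BB gene Tnfrsf9 had 34.2 and 37.4 CPM with vehicle and 28.8 and 27.8 CPM with 5D (log2 fold change -0.34, SE 0.11, edgeR adjusted p = 0.530). Tnfrsf4, which encodes OX40, had 74 and 43 counts with vehicle and 30 and 38 with 5D (log2 fold change -1.13, SE 0.38, edgeR adjusted p = 0.552). Junb, an AP-1 subunit, had a log2 fold change of -0.17 (SE 0.05, edgeR adjusted p = 0.517). The groups did not overlap for 11 of the 29 targets, 2 higher and 9 lower with 5D and these 5 lower genes among them, which is 37.9% beside 37.6% of all genes. Of the higher genes, Csf2, which encodes GM-CSF, was at 346.9 and 346.5 CPM with vehicle and 378.8 and 395.6 CPM with 5D, a log2 fold change of 0.16 (SE 0.05, edgeR adjusted p = 0.487). Ccl22 had 0 counts in 3 libraries and 13 counts in 5D replicate 1, so its unadjusted p-value rests on 1 library and no fold is given. Icam1, an adhesion molecule and a textbook NF-kB target, had 63.3 and 62.4 CPM with vehicle and 62.2 and 63.3 CPM with 5D, a log2 fold change of -0.0033 (SE 0.08, edgeR adjusted p = 0.997). Exons of other genes overlap 2.06% of the exon length of Map3k14, 6.51% of Bcl3, 7.52% of Junb, 11.7% of Icam1 and 12.0% of Csf2, so their values may hold reads of those genes.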

How the data were processed

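The authors aligned reads with STAR to mm10 and GENCODE M21 and used Partek Genomics Suite for quantification, and the deposited values are estimated counts per gene before normalization. Here these were rounded, scaled by the upper quartile, and filtered (normalized counts averaging 1 or more and summing to 10 or more), as in the study's methods, which left out 4904 genes. 5D and vehicle libraries were compared with edgeR 4.0.16 (quasi-likelihood test, two-sided, no covariates) in R 4.3.3, with Benjamini-Hochberg adjustment over all genes, whereas the authors used Gene Set Analysis. The test had been planned for counts, rounded where not whole. Each standard error was derived from the log2 fold change and the F statistic, and 95% intervals use the t distribution on 10.4 to 11.4 degrees of freedom. These are residual plus prior degrees of freedom, where the prior part is estimated by edgeR from the spread of all genes and not from the gene itself. Alternatives used limma 3.58.1 and DESeq2 1.42.0, other scaling, other filters, the replicate number as a block, and 1 library left out.

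Coordinates, exon lengths and overlaps are from GENCODE M21. The deposited gene ends lie 1 base after those of the annotation. BLAST 2.17.0 found no gene outside those overlapping a member that shares 150 bases at 95% identity with it. The code was tested on simulated data. Replicate libraries were further apart than counting noise (chi-square per degree of freedom 6.10 for vehicle and 6.66 for 5D), so all 4 were kept. Members and lists were chosen with earlier results of these data known. Named are the 10 members, listed pathway genes with an unadjusted p-value under 0.05, and Il1rl1, Map3k14, Bcl3, Tnip1, Cyld, Birc3 and Icam1 whatever their values.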

Additional observations from a re-analysis of the deposited data

How the results depend on the processing

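Over 10 members and 11 alternatives, 103 of 110 log2 fold changes kept their sign, 101 of them with an adjusted p-value that stayed above 0.05 and 2 (Rel and Nfkbie with DESeq2) without an adjusted p-value, and 7 changed sign: Nfkbia with limma-voom (-0.00013), without vehicle replicate 2 (-0.0039) and without 5D replicate 1 (-0.075), Nfkb2 (0.027), Nfkbib (-0.075) and Nfkbie (0.035) without vehicle replicate 1, and Nfkbie without 5D replicate 2 (0.0069). With a library left out, the log2 fold change ranged from -0.167 to 0.027 for Nfkb2, -0.075 to 0.072 for Nfkbia, -0.075 to 0.107 for Nfkbib and -0.135 to 0.035 for Nfkbie. The cause was not tested. No member passed after adjustment in the 108 fits that gave an adjusted p-value, and the median of the members lay between -0.036 and 0.016 with a library left out. At an unadjusted p-value under 0.05, DESeq2 called 0 members, 0 ubiquitin editing genes and 782 genes in all, and after adjustment it called 61 genes and 2 targets. After adjustment, limma-voom called 32 genes and 1 target, and no filter 46 genes and 2 targets. With the replicate number as a block, 41 genes and 1 target passed after adjustment, and 2 genes of the IL-33 receptor list at an unadjusted p-value. Same-numbered libraries did not deviate together (correlation 0.00877), so the numbers were not taken as pairs. With a library left out, 15 to 180 genes passed after adjustment and 960 to 1895 at an unadjusted p-value, the highest both without vehicle replicate 1. The unadjusted counts were 0 to 3 for the members, 1 to 5 for kinases and adaptors, 0 to 1 for ubiquitin editing genes, 8 to 10 for targets and 0 to 3 for the IL-33 receptor list, and after adjustment 0 to 2 targets passed. The inhibitor share differed by 0.667 percentage points between groups, and by -0.492 (without vehicle replicate 1) to 1.83 (without vehicle replicate 2) with a library left out. Rel had the lowest counts of the members, 119 to 249 per library.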

Other observations

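Beyond the listed genes, kappaB matches were counted in the 10861 tested genes with a promoter window outside chromosome 18. Of these, 584 held a match in the 250 bases before a start. These 584 were chosen as a group after the data were seen and are given without a test. Their median log2 fold change was 0.0090, beside 0.0039 for genes without a match. At an unadjusted p-value under 0.05, 30 were higher and 24 lower with 5D, which is 9.25% against 7.95% of genes without a match, and 1 passed after adjustment by edgeR.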
